A study of Mus musculus with 6 samples.

Results

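Basement membranes are thin sheets of extracellular matrix under epithelia and around vessels and muscle. Laminin, a trimer of an alpha, a beta and a gamma chain, assembles at the cell surface, type IV collagen forms another network, and nidogens and perlecan tie them together. In the mouse conceptus the parietal endoderm of the yolk sac secretes these proteins in large amounts, with SPARC, to build Reichert's membrane, and in embryoid bodies the outer endoderm lays down a similar membrane beneath itself. The genes described here are 10 of this set: the laminin chains Lama1, Lamb1 and Lamc1, the type IV collagen chains Col4a1 and Col4a2, the nidogens Nid1 and Nid2, the perlecan gene Hspg2, Sparc, and Srgn, which encodes the proteoglycan core protein serglycin. They were taken by name, through the accession of each array probe, out of 21420 genes and unnamed features tested, and 14 probes belonged to them.

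The series set embryoid bodies of mouse embryonic stem cells with Tet1, Tet2 and Tet3 knocked out (TKO) against wild type (WT), on a mixed 129/C57BL6 background. TET enzymes oxidise 5-methylcytosine in DNA. Each TKO line, TKO_26 and TKO_29, and the WT line was measured on 2 arrays, after 10 days of culture without LIF, of which 2 were in hanging drops and 8 in suspension. The series calls the arrays of a line technical replicas, so that TKO had n = 2 lines and WT n = 1 line, and p-values over arrays cover the spread between arrays of a line and not that between lines of a genotype. WT being a single line, a level particular to that line and an effect of the genotype cannot be told apart. All arrays lay on 1 slide, and the file headers give WT and TKO array positions that differ in their first index, so position and genotype cannot be told apart either. The share of spots well above background ran from 38.4% on TKO_26 replicate 1 to 55.8% on TKO_29 replicate 1. Levels below are log2 signals minus the 75th percentile of their own array. A level is comparable between arrays for the same probe, not between probes, and the number of arrays limits the precision of every value.

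The starts of these genes differ in their density of CpG, the dinucleotide whose methylation TET enzymes act on. RefSeq promoter windows (GRCm38.p6) were at hand for 7 of the 10 genes. The 250 bases before the starts of Srgn and Nid1 are shown because both genes fell and their CpG counts differ, with each CG in capitals and the strand of the gene read 5′ to 3′. Srgn has 2 annotated starts, on chr10:62527446-62527695 (minus strand, before the outer start) and chr10:62507758-62508007 (minus strand, before the inner start). Nid1 has its window on chr13:13437352-13437601 (plus strand).
Srgn, outer start: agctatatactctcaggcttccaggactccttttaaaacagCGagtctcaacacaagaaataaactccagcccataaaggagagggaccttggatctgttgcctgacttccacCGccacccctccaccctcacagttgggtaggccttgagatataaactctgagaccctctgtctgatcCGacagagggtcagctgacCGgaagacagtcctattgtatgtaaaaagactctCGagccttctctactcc
Srgn, inner start: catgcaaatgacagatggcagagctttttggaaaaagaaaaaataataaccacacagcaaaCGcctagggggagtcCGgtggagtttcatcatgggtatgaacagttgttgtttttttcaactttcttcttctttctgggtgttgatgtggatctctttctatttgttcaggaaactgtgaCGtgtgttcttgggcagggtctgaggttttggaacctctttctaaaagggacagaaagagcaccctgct
Nid1: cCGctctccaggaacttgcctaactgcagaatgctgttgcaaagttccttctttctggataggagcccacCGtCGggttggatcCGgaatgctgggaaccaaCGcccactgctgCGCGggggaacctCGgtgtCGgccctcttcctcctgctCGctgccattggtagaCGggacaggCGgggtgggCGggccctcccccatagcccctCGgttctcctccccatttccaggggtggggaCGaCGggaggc
The Srgn windows hold 5 and 3 CG and the Nid1 window 16, against a median of 6 over 32851 promoter windows of this length (quartiles 2 and 16). Sparc has 4, Lamb1 14, Hspg2 20, Col4a2 26 and Col4a1 31. Col4a1 and Col4a2 are neighbours on chromosome 8, transcribed in opposite directions from starts that overlap by 22 bases, so the window of each lies within the other gene. Methylation of these windows was not measured in the series.

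Of the 10 genes, 4 were lower in both TKO lines: Srgn 8.98-fold, Lama1 5.44-fold, Nid1 2.63-fold and Col4a1 2.22-fold on the mean of the lines. A gene was called fallen or risen where both lines lay 2-fold or more to the same side of WT and limma gave an adjusted p below 0.05 in each, over all genes. None (0) of the 10 rose. By the same rule 10.6% of all genes tested were called, 6.59% lower and 4.05% higher. In a single line, the same limits called 13.4% of all genes in TKO_26, with 7.79% of all genes lower, and 19.3% in TKO_29, with 11.2% lower. On their brightest probe, 8 of the 10 genes had all TKO arrays below both WT arrays, as did 25.5% of all genes. The mean difference was below 0 for 9 of the 10 genes, and for 52.4% of all genes. The 9 include Sparc on its saturated probe, which gives no fold, while its dim probe differed by -1.52. The median difference of the 10 genes was -0.76, or -1.0 with the dim probe of Sparc in place of its saturated one, against -0.04 over all genes. The test that counts a line as 1 replicate (limma on line averages) called none (0) of the 10, with adjusted p between 0.0507 (Srgn) and 0.870 (Nid2), and called 0.906% of all genes. At an unadjusted p under 0.05, it passed 5 of the 10 and 18% of all genes.

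**Figure D1:**
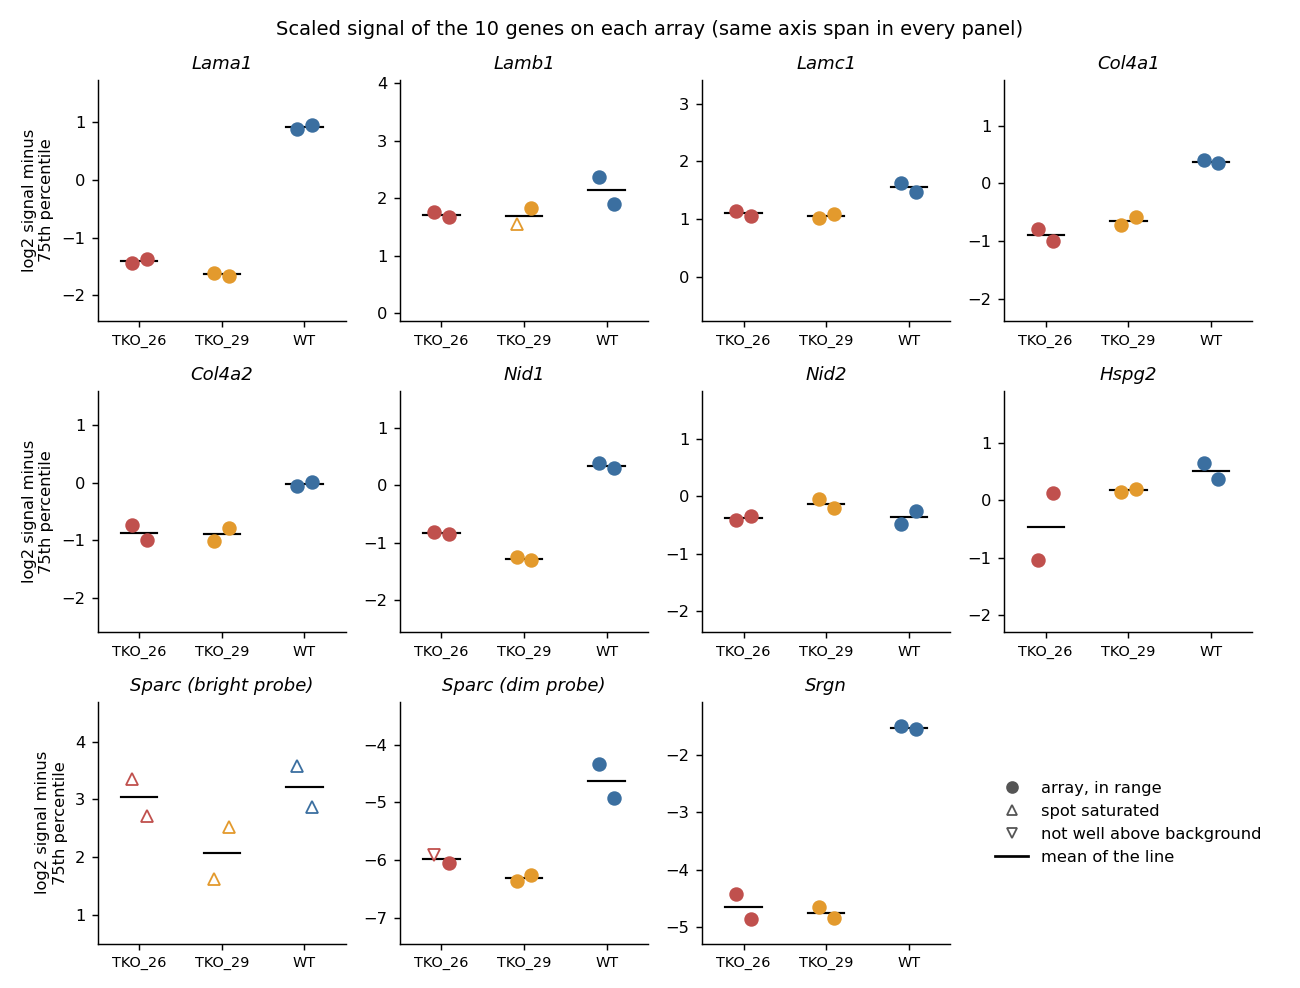
Scaled log2 signal (log2 signal minus the array's 75th percentile, vertical axis, the same span in every panel) of each gene's brightest probe, and of the dim Sparc probe, on the 2 arrays each of TKO_26, TKO_29 and WT. Points are arrays, bars the mean of a line, open upward triangles saturated spots and open downward triangles spots not well above background. The TKO arrays lie at least 2.26 below the WT arrays for Lama1 and at least 2.87 below for Srgn, while those of Nid2 overlap with WT.

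The laminin chains did not move alike. Lama1 encodes the alpha chain of the first laminin of the embryo, and it stood at -1.44 and -1.38 in TKO_26, -1.62 and -1.66 in TKO_29, against 0.89 and 0.95 in WT. All TKO arrays lay below both WT arrays by at least 2.26, with line means of -1.41 ± 0.05 in TKO_26, -1.64 ± 0.03 in TKO_29 and 0.92 ± 0.04 in WT (SD, n = 2 arrays each). Lama1 thus fell, with log2 differences of -2.33 in TKO_26 (SE 0.11, limma adjusted p = 0.000815) and -2.56 in TKO_29 (SE 0.11, adjusted p = 0.000670). Its difference between the TKO lines was -0.23 (95% interval -0.53 to 0.06, adjusted p = 0.271). The array carries a single probe for Lama1.

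Lamb1, the beta chain that pairs with Lama1, stood at 1.76 and 1.67 in TKO_26, 1.55 and 1.84 in TKO_29, against 2.38 and 1.90 in WT. The highest TKO array lay only 0.06 below the lower WT array, and the spot was saturated on TKO_29 replicate 1. The differences were -0.42 in TKO_26 (95% interval -0.97 to 0.12, adjusted p = 0.214) and -0.45 in TKO_29 (-0.99 to 0.10, adjusted p = 0.150). In TKO_29 it turned to 0.25 with normexp and 0.23 with the authors' matrix, and the mean of the lines was -0.20 without WT replicate 1 and -0.67 without WT replicate 2. Lamc1, the gamma chain shared by most laminins, stood at 1.14 and 1.05 in TKO_26, 1.01 and 1.09 in TKO_29, against 1.63 and 1.48 in WT. Its TKO arrays lay below both WT arrays, by at least 0.33. The differences, -0.45 in TKO_26 (adjusted p = 0.0597) and -0.50 in TKO_29 (adjusted p = 0.0348), were under 2-fold. The log2 ratio of Lama1 to Lamb1 within an array was -2.28 to -1.83 on the TKO arrays relative to the mean of the WT arrays, whose own ratios lay 0.27 to either side of that mean. For Lama1 to Lamc1 it was -2.12 to -1.79, with the WT arrays 0.11 to either side, and for Lamb1 to Lamc1 it was -0.05 to 0.16, with the WT arrays 0.16 to either side. The lowest Lamb1 to Lamc1 ratio (-0.05) is of TKO_29 replicate 1, where Lamb1 is saturated. The lowest ratios of Lama1 to Lamb1 and to Lamc1 are of TKO_29 replicate 2, where Lamb1 is in range. These ratios were not tested.

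Among 7 other laminin chains tested, 1 fell and none (0) rose, with a median difference of -0.42. By the same rule 6.59% of all genes tested fell and 4.05% rose. Lama4, the alpha chain of vessel basement membranes, fell, with differences of -3.30 in TKO_26 (adjusted p = 0.000587) and -2.63 in TKO_29 (adjusted p = 0.000787). It stood at -5.99 and -6.18 in TKO_26, -5.39 and -5.45 in TKO_29, against -2.76 and -2.82 in WT, and was well above background on all arrays. Lama2, the alpha chain of muscle basement membranes, differed by -1.06 in TKO_26 and by -0.74 in TKO_29, and its other probe by -1.13 and -1.03, without being called. Lama5, the alpha chain most widespread in later epithelia, differed by 0.16 and 0.21 and was bright on all arrays (1.45 to 1.76 in TKO and 1.28 to 1.5 in WT). Of other beta and gamma chains, Lamb2 differed by -0.09, Lamc3 by 0.13 and Lamb3 by -0.82 on average. Lamc3 was near background, clearing it on 3 TKO arrays and 1 WT array.

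Both chains of the common type IV collagen trimer were lower in TKO. Col4a1, the more numerous chain of that trimer, stood at -0.80 and -0.99 in TKO_26, -0.72 and -0.59 in TKO_29, against 0.40 and 0.36 in WT. The array holds 10 spots of this probe, of which 8 to 10 passed the outlier flags. Their SD within an array was 0.048 to 0.099, and the highest TKO spot (-0.51) lay below the lowest WT spot (0.21). Col4a1 fell, with differences of -1.27 in TKO_26 (SE 0.13, adjusted p = 0.00474) and -1.03 in TKO_29 (SE 0.13, adjusted p = 0.00642). The TKO_29 value is close to the 2-fold limit, and it is -0.97 without TKO_29 replicate 1 and -0.97 with the 75th percentile taken over all probes, so that the call is lost under both.

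Col4a2, its partner chain, stood at -0.74 and -0.99 in TKO_26, -1.01 and -0.79 in TKO_29, against -0.06 and 0.0048 in WT. Its arrays did not overlap between the genotypes. It differed by -0.84 in TKO_26 (95% interval -1.24 to -0.44, adjusted p = 0.0217) and by -0.87 in TKO_29 (-1.27 to -0.47, adjusted p = 0.0145), past the p threshold and under 2-fold. It missed that p threshold in at least one line in 7 of 16 alternatives, among them the replicate block (adjusted p = 0.0566 in TKO_26), no filter (0.123 and 0.0800) and 5 of the 6 fits with an array left out, all but that without TKO_26 replicate 1. With p alone and all arrays, 5 of the 10 genes were lower in both lines, against 10.8% of all genes. Over the 783 tested genes of chromosome 8, which holds both collagens, the median difference was 0.45 in TKO_26 and 0.43 in TKO_29. On the other autosomes and X it lay between -0.12 and 0.04 in either line. Whether that shift touches the collagen values was not tested, and both genes moved against it.

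Of the other type IV collagen chains, 3 were tested, 2 fell and none (0) rose, against 6.59% and 4.05% of all genes. Col4a5, a chain of the smooth muscle and kidney trimers, stood at -4.88 and -4.50 in TKO_26, -4.53 and -4.59 in TKO_29, against -2.58 and -2.80 in WT. It fell, with differences of -2.0 in TKO_26 (adjusted p = 0.00314) and -1.87 in TKO_29 (adjusted p = 0.00305), 3.83-fold on average. Col4a6, its neighbour on the X chromosome, fell at least 9.74-fold on its brighter probe, and cleared background on every WT array and 3 of 4 TKO arrays. Its other probe differed by 0.42 in TKO_26 and by -0.52 in TKO_29, so its probes disagree. The Col4a6 call was lost without WT replicate 1 and without either TKO_29 array. Col4a4, of the kidney trimer, differed by -0.22 on average, but was near background, clearing it on 2 TKO arrays and 1 WT array only.

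**Figure D2:**
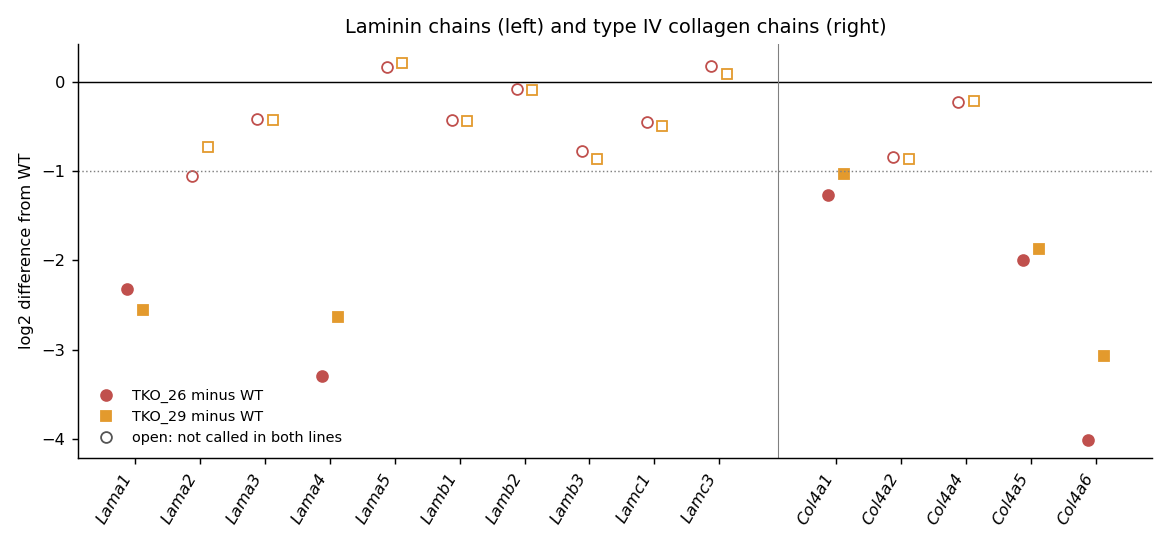
Log2 difference from WT (vertical axis) of laminin chains (left) and type IV collagen chains (right) in TKO_26 (circles) and TKO_29 (squares), on the brightest probe of each gene. Filled symbols were called in both lines. Lama1, Lama4, Col4a5 and Col4a6 lie at or below -1.87, and the beta and gamma laminin chains shown lie between -0.87 and 0.18.

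The nidogens, which bridge laminin and type IV collagen, differed from each other. Nid1 stood at -0.81 and -0.85 in TKO_26, -1.25 and -1.30 in TKO_29, against 0.39 and 0.30 in WT. All TKO arrays lay at least 1.11 below WT, and TKO_29 lay below TKO_26. Nid1 fell, with differences of -1.17 in TKO_26 (SE 0.11, adjusted p = 0.00395) and -1.62 in TKO_29 (SE 0.11, adjusted p = 0.00155), with a difference between the lines of -0.45 (95% interval -0.75 to -0.15, adjusted p = 0.126). Of its other probes, both near background, the first differed by -1.61 in TKO_26 and by -1.5 in TKO_29 but was well above background on 1 WT and 1 TKO array only, and did not enter the tests. The other differed by -0.83 and 0.71, being well above background on 1 WT and 2 TKO arrays. With the mean of the tested probes the Nid1 call was lost (-0.73 on average). Nid2 stood at -0.41 and -0.35 in TKO_26, -0.05 and -0.21 in TKO_29, against -0.49 and -0.25 in WT, and the genotypes overlapped. It differed by -0.01 in TKO_26 (95% interval -0.38 to 0.36) and by 0.24 in TKO_29 (-0.13 to 0.61), so that a 2-fold fall lies outside both intervals. The log2 ratio of Nid1 to Nid2 was -1.91 to -1.11 on the TKO arrays relative to the WT mean, with the WT arrays 0.16 to either side.

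For perlecan the 2 arrays of TKO_26 lay far apart, and for SPARC the bright probe was saturated. Hspg2, the heparan sulphate proteoglycan core protein, stood at -1.05 and 0.12 in TKO_26, 0.15 and 0.20 in TKO_29, against 0.65 and 0.37 in WT. The highest TKO array lay 0.17 below the lower WT array. The low value is of TKO_26 replicate 1, the array with the fewest spots above background. This probe was well above background on all 6 arrays and saturated on none, and the reason for the low value was not tested. Without TKO_26 replicate 1 the mean difference is -0.36 in place of -0.65. The adjusted p was 0.152 in TKO_26 and 0.537 in TKO_29. The other Hspg2 probe, near background, differed by -0.09 and 0.37.

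Sparc, a calcium-binding matrix glycoprotein and a classical product of parietal endoderm, saturated its bright probe on all 6 arrays. The unscaled signals there were 66789 and 74197 in TKO_26, 73966 and 69563 in TKO_29, against 62574 and 65245 in WT, so this probe gives no fold. The dim probe stayed in range, at -5.92 and -6.05 in TKO_26, -6.37 and -6.26 in TKO_29, against -4.34 and -4.92 in WT. All TKO arrays lay at least 1.0 below both WT arrays, and the spot was well above background on 5 of 6 arrays, the exception being TKO_26 replicate 1. When each probe was tested on its own it differed by -1.36 in TKO_26 (SE 0.22, limma adjusted p = 0.0181 over all probes) and by -1.69 in TKO_29 (SE 0.22, adjusted p = 0.00730). That is 2.87-fold lower on average, with the dim array at its measured signal. With genes represented by probes that saturate on no array, Sparc was called and 5 of the members tested fell, Lamb1 then having no probe.

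Srgn showed the largest difference of the 10 genes. Serglycin carries glycosaminoglycans in secretory granules of blood cells and is also made by endothelium and by parietal endoderm. It stood at -4.42 and -4.86 in TKO_26, -4.65 and -4.84 in TKO_29, against -1.51 and -1.55 in WT. Every TKO array lay at least 2.87 below WT, and all were well above background and none was saturated. Srgn fell, with differences of -3.11 in TKO_26 (SE 0.19, adjusted p = 0.00125) and -3.22 in TKO_29 (SE 0.19, adjusted p = 0.00108), with -0.11 between the lines (95% interval -0.60 to 0.38). Of all genes tested, 1.6% had a lower mean difference than Srgn and 2.68% a lower one than Lama1.

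**Figure D3:**
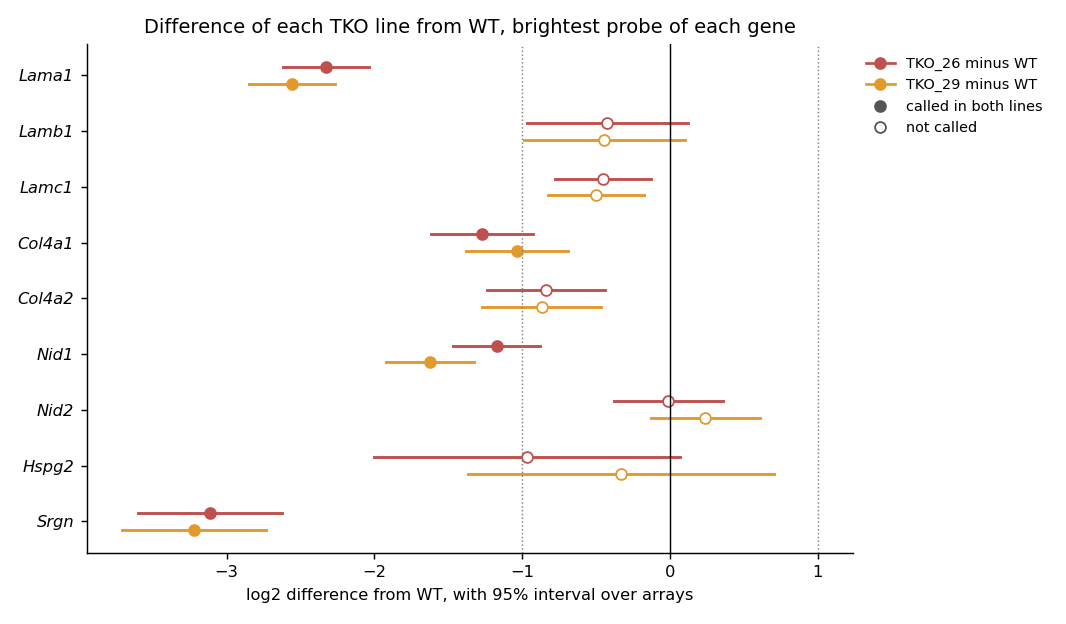
Log2 difference from WT (horizontal axis) with its 95% interval over arrays for the 9 genes whose brightest probe was not saturated throughout, in TKO_26 (red) and TKO_29 (orange). Filled points were called in both lines, dotted lines mark 2-fold. Lama1 and Srgn stand apart from the other genes, and the intervals of Lamb1, Nid2 and Hspg2 include 0.

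No difference between the TKO lines passed an adjusted p of 0.05 for the 10 genes. The differences of TKO_29 from TKO_26 ran from -0.45 (Nid1) to 0.64 (Hspg2) without the saturated Sparc probe, with a lowest adjusted p of 0.126, for Nid1. Nid1 was also the only member at an unadjusted p under 0.05 (1 of 10), which 22.4% of all genes passed, while limma called 0% of all genes after adjustment. In the order of line means, WT came first for Lama1, Lamb1, Lamc1, Col4a1, Col4a2, Nid1, Hspg2, Srgn and the dim Sparc probe. TKO_26 and TKO_29 then lay within 0.24 of each other for Lama1, Lamb1, Lamc1, Col4a1, Col4a2 and Srgn. For Nid2 TKO_29 came first, and TKO_26 and WT lay 0.01 apart.

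Genes with profiles like those of Lama1 and Srgn came from several functions. Likeness was the Euclidean distance between log2 values minus the WT mean over the 6 arrays, among 10270 named genes in range on all arrays. The genes nearest to Lama1 were Gypc, a red cell membrane sialoglycoprotein, Chga, chromogranin A of endocrine granules, Srgap1, a GTPase-activating protein, Slc2a4, an insulin-responsive glucose transporter, and Sdsl, at distances of 0.12 to 0.22 (median of all 4.94). Nearest to Srgn were Foxc2, a transcription factor of mesoderm and lymphatic vessels, Acvrl1, an endothelial receptor of the TGF-beta family, Exoc3l4, Prdm6, a smooth muscle regulator, and Dlk1, a Notch ligand homologue, at 0.29 to 0.42 (median of all 6.39). With 2 arrays in each of 3 lines, a near profile says little more than that the line means match.

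Other genes of the basement membrane were taken from lists, chosen with earlier results of these data known. The call rule gave 6.59% of all genes lower and 4.05% higher, and list counts here and below stand beside those shares. Of 13 other components tested, 5 fell and none (0) rose, with a median of -1.0. Frem1 and Fras1, partners in the Fraser complex beneath epithelia, fell 4.95-fold and 2.63-fold. Smoc1 fell 3.54-fold, Fbln1, encoding fibulin, fell 2.5-fold, and Pxdn, the peroxidase that cross-links type IV collagen, fell 2.37-fold, with -0.66 on its other probe; its call was lost with the authors' matrix. The Fras1 call was lost under each of the other 3 scalings and without WT replicate 1 or TKO_26 replicate 2, and the Fbln1 call without TKO_29 replicate 2. Of 5 relatives of Sparc tested, 3 fell and none (0) rose: Fstl1 3.62-fold, Sparcl1 3.57-fold and Smoc1. The Smoc1 and Fstl1 calls were lost without either TKO_29 array, and that of Fstl1 also without either WT array.

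Of 14 receptors of basement membrane proteins tested, 2 fell and none (0) rose, against 6.59% and 4.05% of all genes, with a median of 0.17. Itga7, the laminin-binding integrin chain of muscle, fell 3.70-fold, standing at -3.49 and -3.65 in TKO_26, -3.61 and -3.44 in TKO_29, against -1.57 and -1.74 in WT. Itga1, a collagen-binding integrin chain, fell at least 2.89-fold, was well above background on 2 of 4 TKO arrays, and lost its call with normexp and with the authors' matrix. The laminin receptor genes Itga6 and Dag1 had mean differences of -0.32 and 0.58 and Itgb1, the common beta chain, 0.53, without being called. Itgb1 lies on chromosome 8, where the median difference was 0.45 in TKO_26 and 0.43 in TKO_29. Whether that shift touches its value was not tested.

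Enzymes that mature or degrade the matrix were mixed. Of 17 collagen maturation genes, 2 fell and 1 rose, against 6.59% and 4.05% of all genes, with a median of -0.09. Serpinh1, the collagen chaperone, fell with Pxdn, 2.1-fold on a probe that was saturated on TKO_29 replicate 1, and Loxl4, a lysyl oxidase, counted as the rise without a measurable fold: it cleared background on the TKO_29 arrays and on no array of TKO_26 or WT, so its TKO_26 value compares signals that did not clear background. The Loxl4 call was lost when any single array was left out, and the Serpinh1 call when any other than WT replicate 2 was; both were also lost with normexp and with the authors' matrix, and Serpinh1 with the percentile over all probes. Of 10 proteases and inhibitors, 1 fell, the metalloprotease Adamts1 (8.30-fold), and 1 rose, the gelatinase Mmp9 (2.16-fold), whose call was lost with normexp, with the authors' matrix and without any array other than WT replicate 2.

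**Figure D4:**
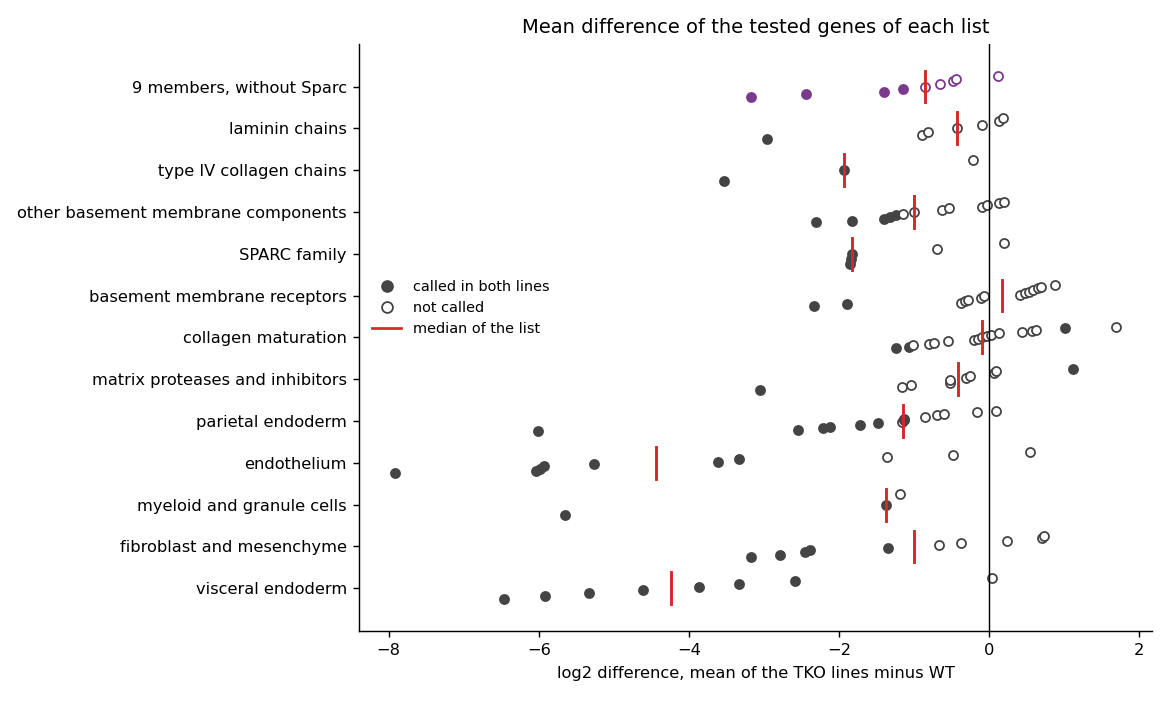
Log2 difference of the mean of the TKO lines from WT (horizontal axis) for the tested genes of each list, with filled points for genes called in both lines, open points for others and a red bar for the list's median. Dim genes are at their measured values. Medians run from -4.44 (endothelium) to 0.17 (receptors), and 9 members, without Sparc, spread from -3.17 to 0.11.

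All 14 genes listed as markers of parietal endoderm passed the filter. Whether they are particular to that cell type in these embryoid bodies was not tested. Of the 14 genes, 7 fell and none (0) rose, with a median of -1.15. The endoderm transcription factors Gata4 and Gata6 fell 5.82-fold and 4.63-fold, and Sox7 was at least 34.5-fold lower, clearing background in WT only. Sox7 thus passed the filter through WT alone. Dab2, an endocytic adaptor of extraembryonic endoderm, fell 4.36-fold and Pth1r, the parathyroid hormone receptor, fell 3.29-fold. Thbd, encoding thrombomodulin, differed by -0.93 and -1.34, Sox17 by -0.54 and -0.65, and the keratin gene Krt8 by -0.39 and 0.06, none of them called. The summed scaled signal of the list, in units of each array's 75th percentile, was 11.8 to 18.5 on the TKO arrays and 25.9 to 29.3 on the WT arrays. It adds probes whose levels are not comparable and includes Krt18, saturated on all 6 arrays. Without Krt18 the sum was 8.57 to 10.2 on the TKO arrays and 16.3 to 17.8 on the WT arrays. Leaving out either array of WT ended the call of Sox7, and that of Snai1, a transcription factor, was lost with normexp, with the percentile over all probes, without WT replicate 1 and without TKO_29 replicate 1.

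Some markers of other cell types that make basement membrane or serglycin also fell, and their part in the values above was not tested. In whole embryoid bodies, fewer cells of a type and less RNA per cell cannot be told apart. Of 10 endothelial markers, 7 fell and none (0) rose, with a summed signal of 0.20 to 0.47 on the TKO arrays against 2.05 to 2.29 in WT. The probes of Kdr disagree. Its brighter probe, used for the count and the sums, was not called, at 0.19 (TKO_26) and -1.16 (TKO_29) relative to WT. For its other probe, well above background on all 6 arrays, these values were -5.86 and -6.03. The brighter Kdr probe had the highest signal of the list on every TKO array, so the TKO sums depend on it. The receptor gene Tie1 and the sialomucin gene Emcn did not clear background in TKO and passed the filter through WT alone. Pecam1 differed by 0.51 in TKO_26 and 0.57 in TKO_29 without being called. Of 10 myeloid and granule cell markers only 3 were tested, of which 2 fell, Csf1r and Pf4, with a sum of 0.13 to 0.17 in TKO against 0.44 in WT. Csf1r differed by -1.37 on average on its brightest probe. Its other probes, well above background on 3 and 5 arrays, differed by only -0.28 and -0.34. Pf4, of platelets and megakaryocytes, did not clear background in TKO and passed the filter through WT alone. Ptprc, Tyrobp, Lyz2, Cd68, Itga2b, Cpa3 and Gzmb were not tested, having no probe on the array that passed the filter. The Pf4 call was lost without WT replicate 1.

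Of 10 fibroblast and mesenchyme markers, 5 fell and none (0) rose, with sums of 3.11 to 3.50 in TKO and 4.89 to 5.57 in WT. All 10 were well above background on some TKO array, and Col1a1 and Col1a2 differed by -0.37 and 0.24 on average. Thy1 differed by 0.77 in TKO_26 and 0.69 in TKO_29 (adjusted p = 0.0130 and 0.0129) and Dcn by 0.44 and 0.96, both under the 2-fold limit. The call of Lum was lost without TKO_29 replicate 2. Of 8 visceral endoderm markers, 7 fell and none (0) rose, with sums of 1.31 to 1.5 in TKO and 2.89 to 3.16 in WT. Afp and Apob did not clear background in TKO and passed the filter through WT alone, and the Apob call was lost without WT replicate 1. Foxa2 differed by 0.03 on average. It was the brightest of the list on every array, at 0.28 to 0.50 in TKO and 0.25 to 0.43 in WT. Most of the TKO sums is therefore Foxa2, and they do not measure the fall of the other markers.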

How the data were processed

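RNA of 6 embryoid body samples, 2 arrays for each of 3 lines, was hybridised to 1-colour Agilent arrays on 1 slide. The deposited intensity values are the processed signals that Agilent Feature Extraction 10.5.1.1 wrote, per the file headers, with background already subtracted. The deposited log2 matrix, used as an alternative, correlated with the scanner values of its own array at 0.995 to 1.000, although the column of TKO_29 replicate 1 correlated slightly more with another array, at 0.9963 against 0.9962, and column medians were 6.86 to 6.89; the sources used here do not give its normalization.

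Outlier spots were left out, spots of a probe averaged, and each array scaled to the 75th percentile of the 19173 probes that cleared background on every array, after which log2 was taken. Probes had to be well above background on both arrays of a line, and the brightest stood for its gene. A gene that cleared background in WT alone could thus enter and be called lower, but hardly higher. Of the list genes, Sox7, Tie1, Emcn, Pf4, Afp and Apob entered this way and count among the falls. The reverse holds for Loxl4, which entered through TKO_29 alone and counts as a rise. Probes were named through their accession (49.4% of probes). limma 3.58.1 in R 4.3.3 was fitted to the 6 arrays in 3 lines (3 residual degrees of freedom) and to the line averages (1 residual degree of freedom), with Benjamini-Hochberg adjustment over 21420 features. Intervals are 95% and cover the spread between arrays. Folds marked "at least" set the dim arrays at their own signal or, where higher, at the lowest signal that cleared background there. The fit to the 3 lines and the call rule were tested on simulated data, with independent noise for probes above background on all arrays. The scaling, the filter, the choice of probe, saturation and the fit to line averages were not part of that test.

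The members and lists were chosen with earlier results of these data known. Up to 5 called genes with the largest mean difference were named per list, or 2 where fewer were called. Other list genes, given as examples of small or uncalled differences, were named after their values were seen. Alternatives covered the scaling, the filter, the probe rule, the variance model, the replicate block and each array left out. The normexp alternative (offset 50) used median spot signals, in place of mean signals. An item withheld for evaluation is not reported here and was left out of its list.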

Additional observations from a re-analysis of the deposited data

How the results depend on the processing

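Lama1 and Srgn were called under all 16 alternatives, at mean differences of -2.47 to -2.25 and -3.28 to -2.84. The number of members called was 3 to 5 throughout, and 3 to 4 with an array left out. Col4a1 lost its call with the 75th percentile over all probes (-1.08) and without TKO_29 replicate 1 (-1.12), Nid1 with the mean of its probes (-0.73), and Sparc was called with unsaturated probes (-1.52). Nid2 turned to -0.0027 without WT replicate 1 and was 0.23 without WT replicate 2. The cause was not tested for these or for the counts below. Over all genes, 2868 were called in TKO_26, 4143 in TKO_29, 194 on line averages and 0 between the TKO lines (4794 at an unadjusted p under 0.05). With normexp these were 1895, 2657, 0 (3852 unadjusted) and 0. With probes above background on all arrays, fewer genes being tested, they were 1499, 2534, 0 (2201 unadjusted) and 337, and with no filter 1408, 2547, 0 (1263 unadjusted) and 0. Line averages gave 1806 with the authors' matrix, 525 with unsaturated probes, 294 with the mean of probes and 1516 with a variance trend. Between the TKO lines there were 246 with the authors' matrix, 1 with the 75th percentile over all probes, 280 with unsaturated probes, 138 with each probe on its own and 483 with the trend. With an array left out (the filter kept from all arrays), the counts ran from 2143 to 3432 in TKO_26, from 2703 (without TKO_29 replicate 1) to 4316 in TKO_29, from 0 to 930 (without TKO_26 replicate 2) between the lines, and from 0 to 1446 on line averages. The line averages gave 0 without TKO_26 replicate 2 or TKO_29 replicate 2, 895 without TKO_29 replicate 1, 303 without WT replicate 2 and 1446 without TKO_26 replicate 1. Calls in both lines numbered 2279, against 1486 with normexp and 1275 with no filter, where the median of all genes was -0.24. The replicate numbers did not pair the arrays (r of deviations 0.24, -0.05 and -0.28 over the pairs of lines); with the replicate block 2595 genes were called in TKO_26, 3988 in TKO_29, 0 between the TKO lines, and 4 members. Saturation limits Sparc and Lamb1, and signals near background limit the second probes of Nid1, Hspg2 and Sparc.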
